A study of Mus musculus with 2 samples.

Results

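The cells described here are pancreatic endocrine cells of Isl1CKO mice that kept transcripts of the beta lineage factors Pdx1 or Nkx6-1 but had little insulin mRNA. They were chosen by measured values. A cell had to hold at least 2 unique molecular identifiers (UMIs, each standing for 1 captured mRNA molecule) of Pdx1 and Nkx6-1 together, no UMI of the alpha cell factors Irx1 and Irx2 or of the delta cell factor Hhex, less than 1% of its UMIs from Ins1 and Ins2, and less than 1% from Gcg. The rule found 1683 of the 8231 Isl1CKO cells kept, 20.4% of them (exact 95% interval 19.6 to 21.3%), and these 1683 are called insulin-poor cells in what follows. They were set beside 467 Isl1CKO cells and 238 control cells that each had at least 5% of their UMIs from Ins1 and Ins2, called insulin-high cells. Isl1CKO cells that met the same factor conditions with 1% to under 5% insulin (246 low-insulin cells) stood between them. A further 1105 Isl1CKO cells, under the same insulin and Gcg limits, held at least 2 UMIs of Irx1 and Irx2 and none of Pdx1, Nkx6-1 or Hhex. They are called Irx cells and served as hormone-poor cells chosen by alpha cell factors. Their lineage was not tested.

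Pancreatic beta cells make insulin and co-secrete islet amyloid polypeptide, amylin, the product of Iapp. Their identity depends on homeodomain factors that act together on shared target genes: Pdx1 and Nkx6-1 are needed to form and keep beta cells, and Isl1, a LIM homeodomain factor, is needed for the maturation of all islet endocrine cell types. In the mouse, Neurod1 turns on after endocrine commitment, so a Neurod1-driven Cre deletes its target in cells that have already entered the endocrine lineage.

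The study sorted tdTomato+ cells, which carry a red reporter of Cre activity, from islets of mice aged 1 month. The Isl1CKO library came from Neurod1 Cre/+; Isl1f/f mice, labelled female and male, in which both Isl1 alleles were floxed. The control library came from Neurod1 Cre/+; Isl1f/+ mice, labelled males, which carry the same Cre and 1 floxed allele, so these controls are heterozygous for the deletion in Cre-expressing cells. Each library was a pool of 3 animals of 1 genotype, and islets were dissociated in actinomycin D, which blocks new transcription. With 1 library for each genotype there was no replicate: no difference below has a replicate check, no test was run, and the exact intervals cover counting error only.

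The libraries held 86086781 UMIs (Isl1CKO) and 48685758 UMIs (control) over 46984 features, and 8231 and 4219 cells passed the filters of 1000 UMIs, 500 genes and 15% mitochondrial UMIs. The control library did not match its label for sex: among insulin-high control cells 35 held Xist UMIs without any Y-linked UMI and 118 held the reverse. Insulin-poor cells were 68.3% Xist-only among cells of known type, Isl1CKO insulin-high cells 62.1% and control insulin-high cells 22.9%, so ratios were also taken within Xist-only and within Y-only cells. Insulin-poor cells had a median of 8495 UMIs (range 1095 to 34803), Isl1CKO insulin-high cells 14645, Irx cells 9045 and control insulin-high cells 19811.5. Mitochondrial transcripts made up a median of 1.81%, 1.41% and 0.50% of UMIs in insulin-poor, Isl1CKO insulin-high and control insulin-high cells. The 2 libraries shared 8 barcodes of kept cells, none of them an insulin-poor cell.

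Levels below are UMIs summed over the cells of a group and scaled by the group's total and a TMM factor to CPM, the usual depth-normalised count, with the insulin-poor cells at a factor of 1. Ratios are log2 of insulin-poor over compared cells, and a gene is called higher or lower where it differed by at least 2-fold. All comparisons share the insulin-poor cells, so their values stand side by side and are not independent.

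The values that chose the cells were as follows and are no finding. Both factors were detected in 743 insulin-poor cells (44.1%), Nkx6-1 alone in 918 (54.5%) and Pdx1 alone in 22 (1.31%). Their Pdx1 level was 65.6 CPM, against 78.1 CPM in Isl1CKO insulin-high and 397 CPM in control insulin-high cells. Nkx6-1 stood at 323 CPM in insulin-poor cells, against 171 CPM in Isl1CKO insulin-high and 459 CPM in control insulin-high cells. Most cells lay near the factor threshold: 605 (35.9%) held exactly 2 UMIs of the pair, 805 (47.8%) held 3 to 5 and 273 (16.2%) held more, while 905 cells failed only because they held 1. At the insulin threshold 35 cells lay just inside (0.8% to under 1%) and 26 just outside (1% to under 1.2%). The label of these cells as without insulin held only loosely, since 129 of them (7.66%) had no insulin UMI. Their median insulin share was 0.0491% of UMIs, against 2.07% in low-insulin, 12.6% in Isl1CKO insulin-high and 56.4% in control insulin-high cells, and 0.0204% in Irx cells. Free RNA, measured in barcodes of 1 to 50 UMIs, was 3.49% insulin in the Isl1CKO library and 9.91% in the control library.

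In the control library 357 of 4219 cells (8.46%, 7.64 to 9.34%) met the same rule, but they differed in other islet hormones. At least 1% of UMIs came from Sst, Ppy, Pyy or Ghrl in 4 of the 1683 insulin-poor cells (0.238%), against 295 of those 357 control cells (82.6%). Genotype and hormone content differ together here, and whether cells of these groups share a lineage was not tested. Among Isl1CKO cells, 18.3% of Xist-only and 27.2% of Y-only cells were insulin-poor, and these cells come from different animals.

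Iapp, the marker that the rule did not use, was lower in insulin-poor than in insulin-high cells but still abundant. Per cell it made up a median of 0.643% of UMIs (middle 50% of cells 0.164 to 1.64%), against 2.82% in low-insulin, 3.72% in Isl1CKO insulin-high and 3.98% in control insulin-high cells. The Irx cells had a median of 0.0113%. At least 1 Iapp UMI was found in 96.4% of insulin-poor cells and in 70.5% of Irx cells. After thinning every cell to 3000 UMIs, these shares were 93.1% and 34.1%. Thinning leaves 1644 insulin-poor, 455 Isl1CKO insulin-high, 229 control insulin-high and 1085 Irx cells. What part of the Irx share came from free Iapp RNA was not tested. Summed over cells, Iapp stood at 16015 CPM in insulin-poor, 42448 CPM in low-insulin, 69767 CPM in Isl1CKO insulin-high, 109997 CPM in control insulin-high and 258 CPM in Irx cells. The log2 ratio was -2.12 (-2.13 to -2.12) to Isl1CKO insulin-high, -2.78 (-2.79 to -2.77) to control insulin-high and 5.96 to Irx cells. Cells at the factor threshold also carried it: those with exactly 2 UMIs of Pdx1 and Nkx6-1 had a median Iapp share of 0.530%, and those just outside the rule 0.256%. Insulin-poor cells therefore lay below the insulin-high cells and above the Irx cells in Iapp, with wide overlap between single cells of the Isl1CKO groups. Isl1CKO cells with at least 2 UMIs of Hhex, no Irx1 or Irx2 and little insulin or Gcg had a similar median, 0.567%. Control cells that met the rule had a median of 3.16%. Iapp was thus not particular to the insulin-poor cells.

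**Figure D1:**
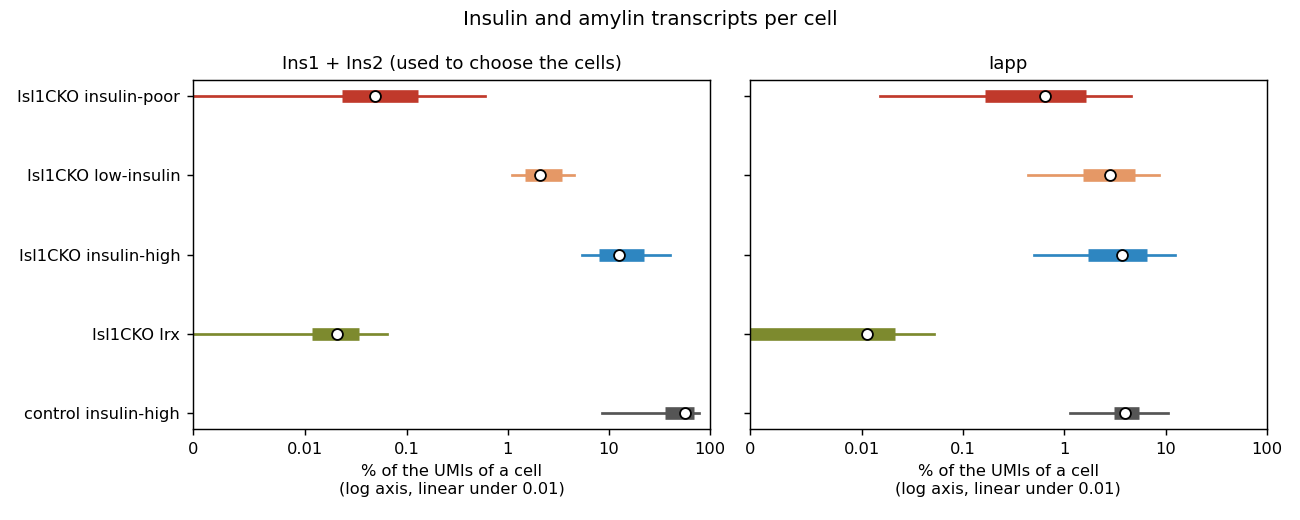
Insulin (Ins1 and Ins2) and Iapp as percent of each cell's UMIs, on an axis that is logarithmic above 0.01% and linear below, for insulin-poor, low-insulin, insulin-high and Irx cells of Isl1CKO and insulin-high cells of control. Dots are medians, thick bars the middle 50% of cells and thin lines the middle 90%; the insulin share is set by the rule, while the median Iapp share was 0.643% in insulin-poor cells and 0.0113% in Irx cells.

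The upstream sequences of Iapp and Ins1 are shown because transcripts of these hormone genes remained and because Pdx1, Nkx6-1 and Isl1 all belong to the homeodomain class, many members of which bind a TAAT core. Each run is the 250 bases before the transcription start in RefSeq (build GRCm38.p6, plus strand), with every TAAT, or its reverse complement ATTA, in capitals; both strands are thereby searched, and overlapping matches such as ATTAAT count separately. Iapp lies at chr6:142298423-142303961 and Ins1 at chr19:52264297-52265476, both on the plus strand. RefSeq places the start of Iapp slightly downstream of the annotation that gives these gene positions, so the end of its run reaches into the stated gene. The Iapp run covers chr6:142298175-142298424 and the Ins1 run chr19:52264047-52264296.
Iapp: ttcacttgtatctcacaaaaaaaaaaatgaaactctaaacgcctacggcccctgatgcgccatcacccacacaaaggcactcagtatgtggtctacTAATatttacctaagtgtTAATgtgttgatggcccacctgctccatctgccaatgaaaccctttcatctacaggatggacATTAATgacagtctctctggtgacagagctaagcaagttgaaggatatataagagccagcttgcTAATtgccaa
Ins1: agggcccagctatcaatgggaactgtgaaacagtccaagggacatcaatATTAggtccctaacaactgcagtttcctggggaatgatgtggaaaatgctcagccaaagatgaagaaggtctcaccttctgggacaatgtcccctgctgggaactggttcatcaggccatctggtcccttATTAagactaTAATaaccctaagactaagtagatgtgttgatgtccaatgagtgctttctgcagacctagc
The Iapp run held 5 matches, and 5.54% of the 32851 RefSeq promoters of the same length held at least as many. The Ins1 run held 3, and 17.3% of promoters held at least as many; 54.9% of all promoters held at least 1. A match is a description of letters, not a measured binding site, and the sequence before Ins2, whose transcripts remained too, was not analysed here.

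The residual insulin mRNA of the insulin-poor cells held more Ins1 than that of insulin-high cells. The mouse has 2 insulin genes, and the rule used only their sum. Ins1 made up 41.3% (40.7 to 42.0%) of the insulin UMIs of insulin-poor cells, 10175 Ins1 against 14434 Ins2 UMIs. Its share was 24.5% in low-insulin cells, 13.5% (13.4 to 13.5%) in Isl1CKO insulin-high cells and 20.4% in control insulin-high cells. Free RNA, the background, held 10.6% Ins1 in the Isl1CKO library and 17% in the control library, and the Irx cells held 14.2%. The high share was not limited to insulin-poor cells: 75 Isl1CKO cells with at least 2 UMIs of Hhex, no Irx1 or Irx2 and little insulin or Gcg (Hhex cells) held 51.2% (47.3 to 55.1%). Within insulin-poor cells the Ins1 share was higher where more insulin was present: 15.6% (11.6 to 20.3%) in the 368 cells with under 0.02% insulin, 23.7% in the 481 cells with 0.02 to 0.05%, 37.3% in the 525 cells with 0.05 to 0.2% and 44.4% (43.7 to 45.1%) in the 309 cells with 0.2 to 1%. The lowest of these bins was thus at the level of the Irx cells, and the highest was farthest from free RNA.

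Single cells showed the same pattern. Among cells with at least 10 insulin UMIs, the median Ins1 share was 38.5% in 509 insulin-poor cells, 18.7% in 246 low-insulin cells, 11.8% in 467 Isl1CKO insulin-high cells and 19.7% in 238 control insulin-high cells. Ins1 exceeded Ins2 in 182 of the 509 insulin-poor cells (35.8%, 31.6 to 40.1%), against 32 of 246 low-insulin cells (13.0%), 6 of 467 Isl1CKO insulin-high cells (1.28%) and 8 of 238 control insulin-high cells (3.36%). The summed share was 41.5% in Xist-only and 42.2% in Y-only insulin-poor cells, against 13.6% and 12.4% in Isl1CKO insulin-high cells of the same kinds. The 4 cells with the most UMIs held 5.21% of Ins1 and 4.97% of Ins2 UMIs of the insulin-poor cells, so few cells did not carry the sums. The 2 genes are close paralogs, and the assignment of reads that both share makes the split uncertain, although the same counting applied to every group of cells.

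**Figure D2:**
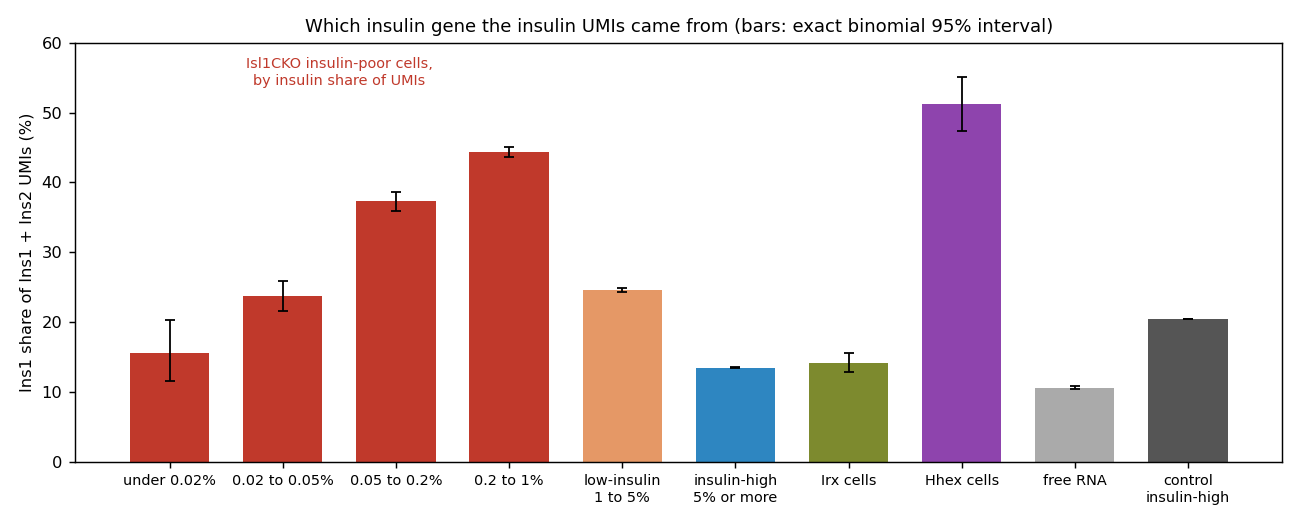
Ins1 as percent of all insulin UMIs (Ins1 plus Ins2) in 4 bins of insulin-poor cells by insulin share, then in low-insulin, insulin-high, Irx and Hhex cells and free RNA of the Isl1CKO library, and in insulin-high control cells; whiskers are exact binomial 95% intervals. The share was 15.6% in the insulin-poor bin with the least insulin and 44.4% in the bin with the most, against 13.5% in Isl1CKO insulin-high and 51.2% in Hhex cells.

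Across the transcriptome the insulin-poor cells were close to the insulin-high cells of their own library. Of 6747 genes measured (at least 20 CPM and 20 UMIs in 1 group), 36 were at least 2-fold higher in insulin-poor cells (0.534%) and 102 at least 2-fold lower (1.51%), together 2.05%. Against control insulin-high cells, 600 of 7043 genes (8.52%) were higher and 481 (6.83%) lower in insulin-poor cells, together 15.3%. Median log2 ratios over all measured genes were -0.00 and 0.04. Insulin made up 0.153% of all UMIs summed over insulin-poor, 20.1% over Isl1CKO insulin-high and 57.6% over control insulin-high cells, and without scale factors these medians move by 0.41 and 1.35. The split of calls moves with them, to 157 higher and 36 lower in the first comparison and 5041 and 54 in the second. In the comparison with control it was 423 higher and 718 lower when totals were taken without hormone genes, and 454 and 650 with DESeq2 size factors, so ratios to control insulin-high cells are best read relative to these shifts.

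Genes of beta cell function were lower as a group in insulin-poor cells. Of the 28 genes of this list in the files 19 were measured against Isl1CKO insulin-high cells; 10 were at least 2-fold lower, none higher, and their median log2 ratio was -1.37. Within Xist-only cells the median over the genes measured there was -0.42 and within Y-only cells -0.95. The control comparison measured 24, of which 17 were lower and 1 higher in insulin-poor cells, with a median of -2.87. Without scale factors the medians were -0.96 and -1.41. The size of the difference varied widely from gene to gene. Slc2a2, the GLUT2 glucose transporter, stood at 19.7 CPM (17.6 to 22.0) in insulin-poor, 80.6 CPM in low-insulin, 131 CPM in Isl1CKO insulin-high and 748 CPM in control insulin-high cells. Its log2 ratio was -2.73 (-2.93 to -2.54) to Isl1CKO and -5.24 to control insulin-high cells, and 9.98% of insulin-poor, 41.3% of Isl1CKO insulin-high and 0.362% of Irx cells held a UMI (4.01%, 17.6% and 0 of 1085 cells after thinning, the last allowing up to 0.339%). The level thus followed the insulin class step by step, and Slc2a2 was nearly undetected in the Irx cells.

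Abcc8, the SUR1 subunit of the ATP-sensitive potassium channel, was nearly undetected. It had 22 UMIs in 9 of the 1683 insulin-poor cells, 1.37 CPM (0.859 to 2.07), against 10.6 CPM in low-insulin, 79.5 CPM in Isl1CKO insulin-high and 354 CPM in control insulin-high cells. A UMI was found in 0.535% of insulin-poor cells and 1.99% of Irx cells, against 19.1% of Isl1CKO and 86.6% of control insulin-high cells; after thinning the shares were 0.304% of insulin-poor, 0.829% of Irx, 10.3% of Isl1CKO insulin-high and 39.3% of control insulin-high cells. Of those 22 UMIs, 72.7% lay in 4 cells. G6pc2, the islet glucose-6-phosphatase, stood at 0.561 CPM in insulin-poor, 5.29 CPM in low-insulin, 31.9 CPM in Isl1CKO insulin-high and 588 CPM in control insulin-high cells. Both genes were at least 2-fold lower in insulin-poor than in Isl1CKO insulin-high cells, with log2 ratios of -5.80 (-6.55 to -5.24) for Abcc8 and -5.69 (-6.98 to -4.87) for G6pc2. The Abcc8 ratio was -2.78 within Xist-only and -5.73 within Y-only cells, and that of G6pc2 was -5.56 within Y-only cells, with too few UMIs for a value within Xist-only cells.

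Transporters, receptors and a folding enzyme of the beta cell followed the same order at smaller ratios. Slc30a8, the zinc transporter of insulin granules, had 139.8 CPM in insulin-poor, 269.6 CPM in low-insulin, 417 CPM in Isl1CKO insulin-high and 935 CPM in control insulin-high cells. Ero1lb, an oxidase that helps proinsulin fold, had 22.3, 38.7, 105 and 582 CPM in those 4 groups. Ffar1, a fatty acid receptor that raises insulin secretion, had 5.79, 16.2, 29.7 and 108 CPM. Their log2 ratios to Isl1CKO insulin-high cells were -1.58, -2.24 and -2.35, and those to control insulin-high cells were -2.74, -4.70 and -4.22. Papss2, Sytl4 and Dlk1 completed the called genes, with log2 ratios to Isl1CKO insulin-high cells of -1.83, -1.39 and -1.37. Dlk1 was also the gene that was higher than in control insulin-high cells, with a log2 ratio of 2.84 (2.96 among Xist-only and 0.40 among Y-only cells).

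Late maturation genes were at or near 0 in the insulin-poor cells and scarce in the Isl1CKO insulin-high cells too. Ucn3, a peptide of mature beta cells, had 3 UMIs in insulin-poor cells (0.187 CPM), against 1.62 CPM in Isl1CKO insulin-high and 235 CPM in control insulin-high cells. Mafa, a factor of mature beta cells, had no UMI in insulin-poor cells, 2 UMIs in Isl1CKO insulin-high cells and 31 UMIs in control insulin-high cells; set against the 3 UMIs that a count of 0 allows, its level was at least 82.9-fold lower than in control insulin-high cells. Trpm5, a cation channel, also had no UMI and was at least 321-fold lower than the 60 CPM of control insulin-high cells. Other beta cell genes were within 2-fold. The incretin receptor Gipr stood at 29.4 CPM in insulin-poor, 25.4 CPM in Isl1CKO insulin-high and 36.5 CPM in control insulin-high cells. The vitamin D receptor Vdr stood at 75.1, 65.1 and 79.5 CPM in these 3 groups. Prlr, the prolactin receptor, stood at 221, 306 and 365 CPM, with log2 ratios of -0.47 and -0.73.

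**Figure D3:**
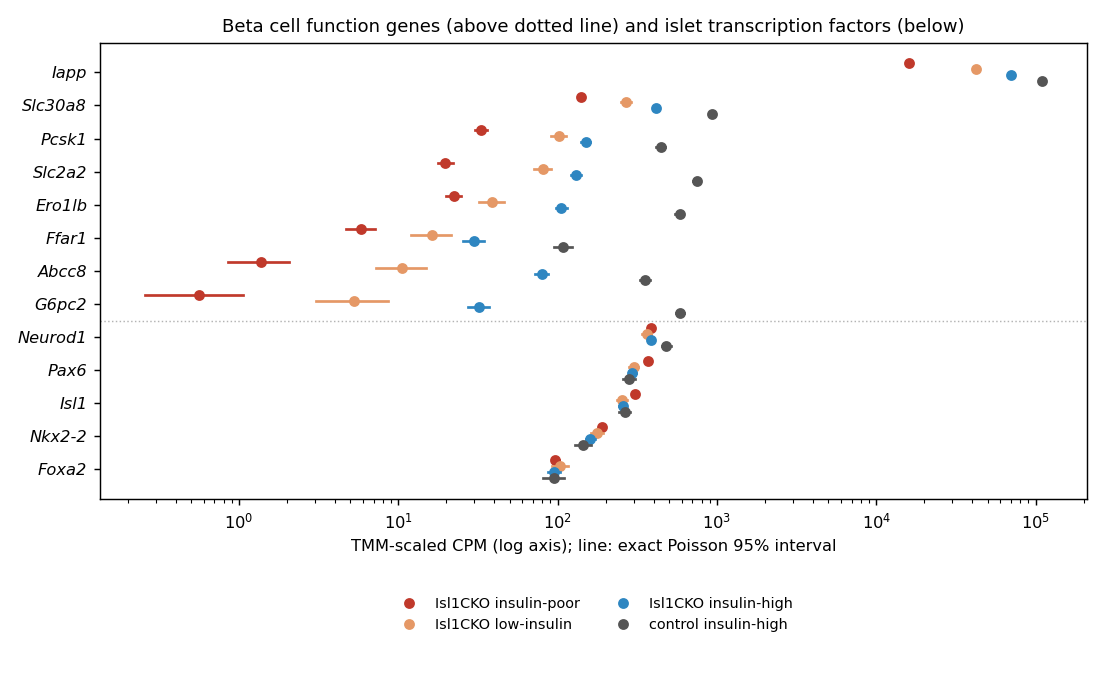
Levels (TMM-scaled CPM, logarithmic axis, exact Poisson 95% intervals) of beta cell genes above the dotted line and islet transcription factors below it, in insulin-poor, low-insulin and insulin-high Isl1CKO cells and insulin-high control cells. Beta cell genes were spread over the groups, with Slc2a2 at 19.7 CPM in insulin-poor and 748 CPM in control insulin-high cells, while Neurod1, at 386 and 480.3 CPM, lay close together.

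Islet transcription factors, by contrast, lay close to the level of Isl1CKO insulin-high cells. Of 14 measured against Isl1CKO insulin-high cells none was called in either direction, and the median log2 ratio was 0.24. Of 15 measured against control insulin-high cells 2 were lower and none higher, with a median of 0.22. Over all measured genes, 2.05% and 15.3% were called in these comparisons. The counts for the factors are near those shares, so they are not particular to the factors. Neurod1, an endocrine factor downstream of Neurog3, had 386 CPM in insulin-poor, 385 CPM in Isl1CKO insulin-high and 480.3 CPM in control insulin-high cells. Pax6, needed for hormone expression in all islet cells, had 367, 294 and 281 CPM, and Nkx2-2, a beta lineage homeodomain factor, had 190.4, 161 and 144 CPM. Foxa2, a pioneer factor of the pancreas, had 96.7, 95 and 94.5 CPM. Among those lower than in control insulin-high cells was Mnx1, needed for beta cell identity, at 3.24 CPM against 31.0 CPM (log2 ratio -3.25).

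Transcripts of the deleted gene did not separate the groups. Isl1 had 306 CPM in insulin-poor, 255 CPM in Isl1CKO insulin-high and 263 CPM in control insulin-high cells. The library counts 3′ ends and the labels do not say which exons are floxed, so this count does not check the deletion.

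Prohormone processing genes split. Pcsk1, the convertase that makes the first cut in proinsulin, had 33.3 CPM (30.5 to 36.2) in insulin-poor, 101 CPM in low-insulin, 150.0 CPM in Isl1CKO insulin-high and 444 CPM in control insulin-high cells (log2 ratios -2.17 to Isl1CKO and -3.74 to control insulin-high cells). A Pcsk1 UMI was found in 19.8% of insulin-poor, 57.6% of Isl1CKO insulin-high and 2.08% of Irx cells (6.08%, 25.3% and 0.461% after thinning). Pcsk2, the other convertase, had 3194 CPM in insulin-poor, 3735 CPM in low-insulin, 4043 CPM in Isl1CKO insulin-high and 3800.1 CPM in control insulin-high cells, all within 2-fold. Scg2, a granin of the secretory granule, was the other granule gene lower than in Isl1CKO insulin-high cells, with 303 CPM against 901 CPM, and 4697 CPM in control insulin-high cells. Of the 20 genes of the list these were the 2 called, and the list's median log2 ratio was -0.16 (0.25 without scale factors). Chgb, another granin, went the other way. It stood at 45545 CPM in insulin-poor, 45569 CPM in low-insulin and 24177 CPM in Isl1CKO insulin-high cells, short of 2-fold (log2 ratio 0.91), and at 6650.5 CPM in control insulin-high cells (log2 ratio 2.78). Scgn, a calcium sensor, was near its Isl1CKO insulin-high level (148 against 134 CPM) and lower than in control (430.3 CPM, log2 ratio -1.54).

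Of the endocrine progenitor list, 1 of 11 measured genes was higher than in Isl1CKO insulin-high cells and none lower (median log2 ratio 0.20). It was Fev, a factor of Neurog3-descended endocrine precursors and of serotonin neurons, at 309 CPM (301 to 318) in insulin-poor, 217 CPM in low-insulin, 137 CPM in Isl1CKO insulin-high and 71.0 CPM in control insulin-high cells. Its log2 ratios were 1.18 (1.07 to 1.29) and 2.11, and 84.5% of insulin-poor, 62.7% of Isl1CKO insulin-high, 29.4% of control insulin-high and 68.2% of Irx cells held a UMI (56.9%, 26.2%, 7.86% and 36.7% after thinning). Fev was thus highest in the insulin-poor cells among the groups compared. By level or share, the other Isl1CKO groups given also stood above control insulin-high cells. Neurog3, the factor that starts endocrine commitment, had 19.9 CPM in insulin-poor, 8.92 CPM in low-insulin, 5.41 CPM in Isl1CKO insulin-high and 22.0 CPM in control insulin-high cells, just under the filter in the first comparison. A Neurog3 UMI was found in 13.5% of insulin-poor, 5.57% of Isl1CKO insulin-high and 0.362% of Irx cells (7.12%, 1.10% and 0.0922% after thinning). Sox4, which acts beside Neurog3, differed little within the library, at 340.3 CPM against 367 CPM, and was higher than the 112 CPM of control insulin-high cells (log2 ratio 1.60). Against control, 4 of 12 measured genes of this list were higher and 1 lower, beside 8.52% and 6.83% over all genes.

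Of the pancreatic progenitor and duct list, 2 of 12 measured genes were higher than in Isl1CKO insulin-high cells and none lower (median 0.09). Vim, vimentin, an intermediate filament protein often seen in mesenchymal and progenitor cells, had 75.4 CPM in insulin-poor, 54.5 CPM in low-insulin, 13.2 CPM in Isl1CKO insulin-high and 5.00 CPM in control insulin-high cells. Its log2 ratios were 2.50 (2.18 to 2.88) and 3.78, and 31.8% of insulin-poor, 8.99% of Isl1CKO insulin-high and 0.724% of Irx cells held a UMI (14.5%, 3.30% and 0.369% after thinning). Stromal cells also express Vim, and their defining markers were at or near 0: 6 of the 9 stromal markers had no UMI in insulin-poor cells, and the list summed to 4.36e-05% of UMIs. The other called gene was Gata6, an endoderm factor of early pancreas, at 65.8 CPM against 30.1 CPM (log2 ratio 1.12) and 54 CPM in control insulin-high cells. Among duct markers Tspan8, a tetraspanin, was higher, at 197 CPM against 58.6 CPM (1.74) and 155 CPM in control insulin-high cells, while Krt19, the classic duct keratin, had 0.561 CPM.

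Single genes with higher levels in insulin-poor cells were Cldn5, Nrgn and Slc18a1. Cldn5, a tight junction protein best known from endothelium, had 52.0 CPM in insulin-poor, 13.3 CPM in Isl1CKO insulin-high and 15 CPM in control insulin-high cells. Endothelial markers summed to 0.000853% of UMIs in insulin-poor, 0.000163% in Isl1CKO insulin-high and 0.00173% in control insulin-high cells, with 4 of 7 at 0 in both Isl1CKO groups; their part in the Cldn5 level was not tested. Nrgn, neurogranin, a calmodulin-binding protein of neurons, had 58.1, 18.9 and 8.5 CPM in the same groups. Slc18a1, the vesicular monoamine transporter, had 34.0, 9.92 and 8.0 CPM. Tac1, the precursor of substance P, had 234 UMIs in 132 insulin-poor cells (14.6 CPM), against 0.901 CPM in Isl1CKO insulin-high cells and no UMI in control insulin-high cells, at least 9.72-fold higher than in control against the 3 UMIs that a count of 0 allows; Tac1 lay under the filter of 20 CPM. Lower than in both insulin-high groups was Msln, mesothelin, at 1.56 CPM against 73.9 CPM in Isl1CKO and 166 CPM in control insulin-high cells.

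Some sugar metabolism genes were lower within the library. Of 21 measured glucose metabolism genes 5 were lower and none higher than in Isl1CKO insulin-high cells, with a median log2 ratio of -0.52 (-0.10 without scale factors). Besides Slc2a2 and G6pc2 these were the gluconeogenic enzymes Fbp1 (43.2 against 142 CPM, log2 ratio -1.72) and Fbp2 (21.5 against 75 CPM, -1.80), and Mlxipl, the glucose-responsive factor ChREBP (56.7 against 124 CPM, -1.13). Genes of the list of dedifferentiation and disallowed genes did not behave as 1 class. Of 6 measured, 4 were lower than in Isl1CKO insulin-high cells and none higher, among them Slc5a10, a mannose and fructose transporter (12.3 against 104 CPM, -3.08), Gc, the vitamin D carrier (161 against 393 CPM, -1.28), and Gast, gastrin (25.9 against 56.3 CPM, -1.12). Of 5 measured against control insulin-high cells 4 were higher and none lower, among them Gast (6.50 CPM in control, log2 ratio 1.89) and Gc (74.5 CPM, 1.11). Gc and Gast thus stood higher in the Isl1CKO insulin-high cells than in the insulin-poor or control insulin-high cells. Gc was higher still in Irx cells, with a log2 ratio of insulin-poor to Irx cells of -1.87. The Gast ratio to control insulin-high cells differed with sex-linked transcripts, at -2.77 in Xist-only and 4.52 in Y-only cells.

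Other islet hormone transcripts came mostly from few of the insulin-poor cells. Summed Ppy, Pyy and Sst were higher than in Isl1CKO insulin-high cells, with log2 ratios of 2.71, 2.61 and 4.80, but 4 cells held 83.6%, 57.0% and 97.5% of their UMIs. Without the 4 cells with the most UMIs of each gene, Ppy stood at 14.3 CPM, Pyy at 41.6 CPM and Sst at 0.623 CPM in insulin-poor cells. The levels in Isl1CKO insulin-high cells were 13.2, 15.7 and 0.721 CPM. No cell was left out of the insulin-high sums, so the values are not trimmed alike. In control insulin-high cells these genes stood at 12483, 19294 and 13362 CPM. The alpha cell genes Ttr, transthyretin, and Gc were lower than in Isl1CKO insulin-high cells (9379 against 24344 CPM for Ttr). Of 12 alpha list genes measured in that comparison 2 were lower and 1 higher, against 1.51% and 0.534% over all genes. Their median log2 ratio was -0.31 (0.12 without scale factors). The alpha list summed to 1.08% of UMIs, against 1.97% in Isl1CKO insulin-high and 10.3% in Irx cells, and most of each sum was Ttr. Of 7 delta and gamma cell genes measured, 4 were higher than in Isl1CKO insulin-high cells and none lower (median log2 ratio 1.19). Over all genes 0.534% were higher. Ppy, Pyy and Sst were among these 4, so the count rests in part on few cells, as does the list's sum in insulin-poor cells. Within clusters 0, 2 and 5 together the Ppy and Sst log2 ratios were -0.23 and -0.67. That list made up 0.0468% of UMIs in insulin-poor and 0.0213% in Isl1CKO insulin-high cells. It made up 0.108% in Irx, 1.51% in Hhex and 1.85% in control insulin-high cells.

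The Isl1CKO cells formed 12 clusters built without the genes of the rule. Clusters 0, 2 and 5 held 466, 380 and 297 insulin-poor cells and 141, 110 and 197 of the 467 insulin-high cells; clusters 6 and 7 held 165 and 305 insulin-poor cells, but 2 and 7 insulin-high cells. Clusters 0, 2 and 6 were 99.9%, 99.6% and 99.4% Xist-only and clusters 5 and 7 were 2.26% and 2.23%, so the clusters divide cells by sex-linked transcripts, and cells of each sex come from different animals. Ratios within a cluster, chosen after the data were seen, largely compare cells of 1 sex. Within clusters 0, 2 and 5 the Iapp log2 ratio was -1.52, -1.42 and -1.85, that of Pcsk1 -1.92, -1.75 and -1.63, and that of Slc30a8 -1.26, -1.27 and -1.35. Each remained at least 2-fold lower in insulin-poor cells. Slc2a2 was lower in clusters 0 and 5 (-2.12 and -1.92), while in cluster 2 its ratio was -0.78 with an interval that held 0 (-1.54 to 0.09). Abcc8 was far lower in cluster 5 (-5.45), which held the most insulin-high cells, while its cluster 0 interval ran from -5.38 to 2.19. Vim was higher in all 3 (2.91, 1.85 and 3.44), and Fev stood at 0.96, 1.05 and 1.17. The Ins1 share of insulin UMIs was 41.2%, 46.2% and 42.0% in insulin-poor cells of clusters 0, 2 and 5, against 13.6%, 13.5% and 13.5% in insulin-high cells of the same clusters.

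**Figure D4:**
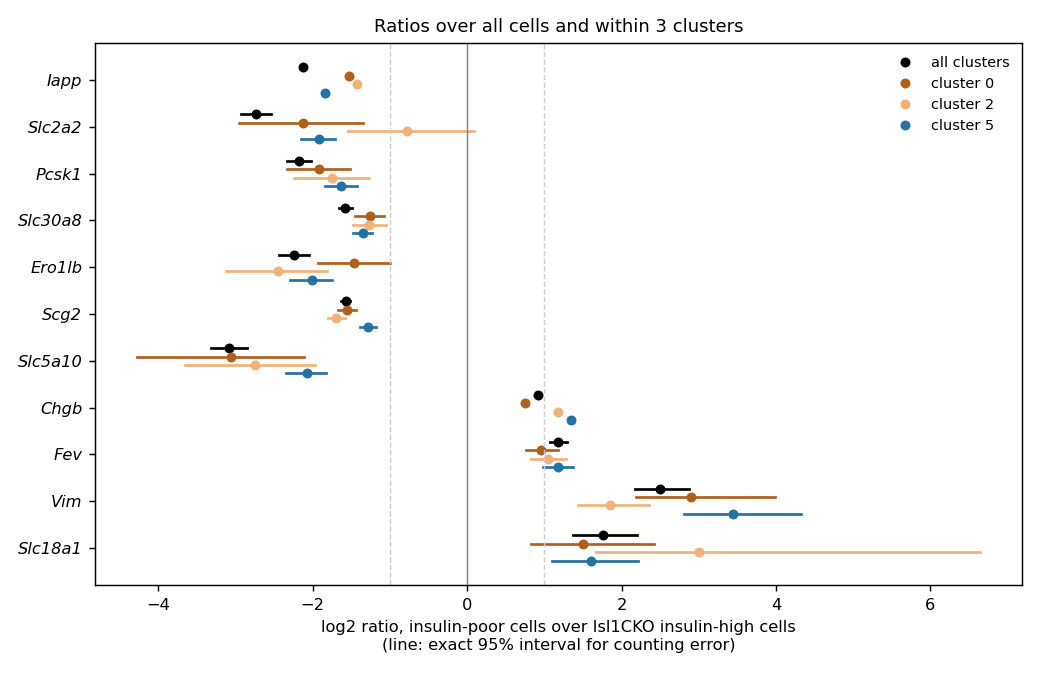
Log2 ratio of insulin-poor over insulin-high Isl1CKO cells for 11 genes, over all clusters and within clusters 0, 2 and 5, with exact conditional 95% intervals for counting error; dashed lines mark 2-fold. Iapp, Pcsk1, Slc30a8, Slc5a10 and Scg2 lay below the lower line in each cluster and Vim above the upper line, while the Slc2a2 interval of cluster 2 reached 0.

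The insulin-poor cells themselves fell into 2 kinds by cluster, described here without a test because the clusters were made from these cells' genes. The 470 cells of clusters 6 and 7 (27.9% of insulin-poor cells) had less insulin than those of clusters 0, 2 and 5, 0.0490% against 0.185% of summed UMIs, and fewer UMIs (median 6564 against 9966). Of 6732 genes, 49 were at least 2-fold higher in them (0.728%) and 71 lower (1.05%). Iapp stood at 6190.1 CPM against 18932 CPM, Chgb at 22238 against 52614 CPM, and Slc2a2 at 1.68 against 25.7 CPM. Dlk1, an imprinted inhibitor of differentiation expressed in beta cells, had 2.24 against 115 CPM, and Cartpt, an islet neuropeptide, had 38.1 against 259 CPM. The measured factors of the islet list were within 2-fold: Meis2 had 254 against 172 CPM, Nkx2-2 236 against 176 CPM, Pax6 429 against 343 CPM and Isl1 342 against 289 CPM, and none of the 15 measured was called. That count is near the small share called over all genes. Neurog3 was higher in clusters 6 and 7, at 45.2 against 12.6 CPM. The Ins1 share of insulin UMIs in insulin-poor cells was 15.7% in cluster 6 and 26.4% in cluster 7, below that in clusters 0, 2 and 5. Delta and gamma cell genes were at least 2-fold higher in clusters 6 and 7 in 4 of 7 cases measured, with none lower. That list made up 0.117% of summed UMIs there, against 0.0277% in clusters 0, 2 and 5. Its share was 0.241% in cluster 6 and 0.0548% in cluster 7. Few cells held most Ppy, Pyy and Sst UMIs of all insulin-poor cells, and their part in these shares was not tested. Clusters 6 and 7 thus held less of the beta cell transcripts named above, more Neurog3 and more delta and gamma cell transcripts. The 2 kinds also differed in sex, and so in animals. Of insulin-poor cells of known type, 41.8% were Xist-only in clusters 6 and 7 and 77.5% in clusters 0, 2 and 5. Dlk1 also differed between Xist-only and Y-only insulin-poor cells, as given below. What part sex or animal had in these contrasts was not tested.

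**Figure D5:**
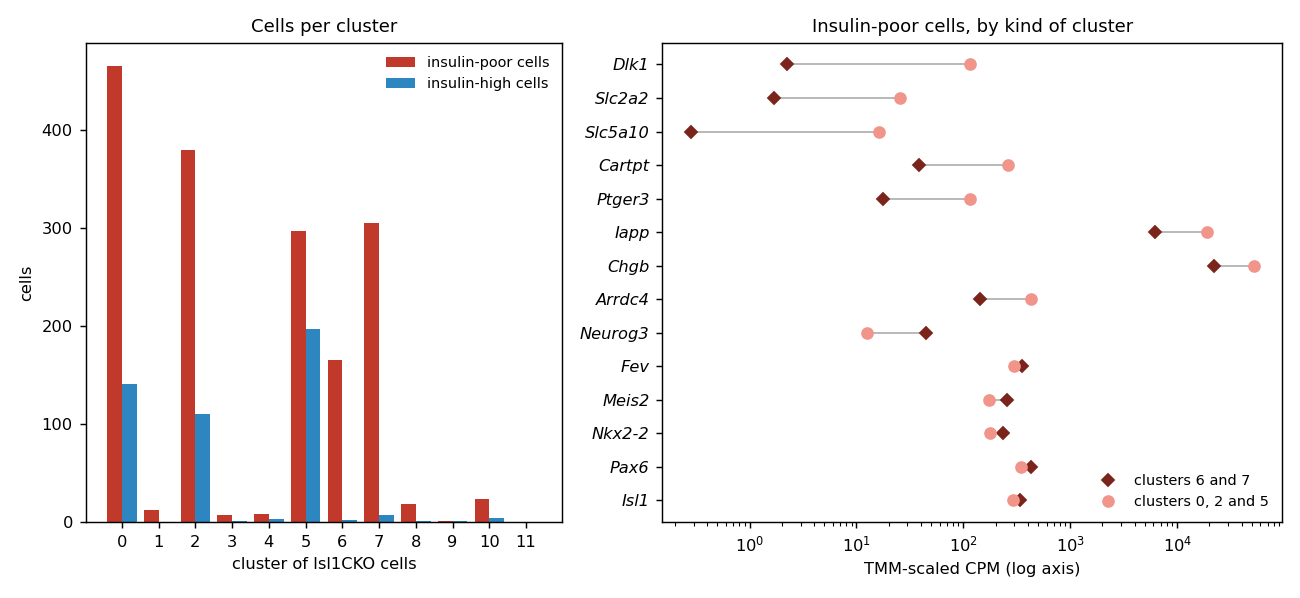
Left, number of insulin-poor and insulin-high Isl1CKO cells in each cluster; right, levels (CPM, logarithmic axis) of 14 genes in insulin-poor cells of clusters 6 and 7 (diamonds) and of clusters 0, 2 and 5 (circles), with a grey line joining each pair. Iapp was 6190.1 CPM in clusters 6 and 7 and 18932 CPM in clusters 0, 2 and 5, while Pax6 was 429 and 343 CPM.

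Ordering the insulin-poor cells by insulin share, in the same 4 bins as for the Ins1 share, gave the same picture in steps; the bins rest on the value that chose the cells, and counts of free RNA enter every bin. From the lowest to the highest bin Iapp stood at 7681, 9959, 16714 and 28762 CPM and Slc5a10 at 0.995, 3.51, 9.86 and 35.7 CPM. Slc2a2 had 5.64, 13.2, 13.0 and 48.2 CPM. Neurog3 ran the other way, with 29.9, 26.1, 16.6 and 7.48 CPM, as did Tac1, with 28.2, 16.2, 13.4 and 1.94 CPM. Fev had 325, 333, 301 and 261 CPM and Foxa2 95.2, 97.6, 94.5 and 94.4 CPM, so these 2 factors, unlike Neurog3, varied far less over the bins than Iapp, Slc5a10 and Slc2a2.

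Sex, and with it the animal, also divided the insulin-poor cells. Slc2a2 stood at 6.75 CPM in Xist-only and 39.7 CPM in Y-only insulin-poor cells, Dlk1 at 131 and 14.4 CPM, and Sox4 at 413 and 195 CPM. Of the ratios given next, each kept its direction in both kinds of cell. To Isl1CKO insulin-high cells of the same kind, the Iapp log2 ratio was -1.59 in Xist-only and -2.38 in Y-only cells, that of Slc2a2 -1.24 and -2.57, that of Fev 1.03 and 1.24, and that of Vim 2.47 and 3.35. The summed ratios of other islet hormones depended more on the split, at 1.83 and 3.73 for Ppy, 1.03 and 5.78 for Pyy and 0.54 and 7.31 for Sst in Xist-only and Y-only cells, and that of Tspan8 was 1.31 and 2.42. To control insulin-high cells of the same kind, of which 35 were Xist-only, the ratio in Xist-only and Y-only cells was -3.08 and -2.33 for Iapp, -5.99 and -4.33 for Slc2a2, -5.07 and -3.33 for Ffar1, -4.44 and -3.03 for Pcsk1, -1.32 and -4.33 for Mnx1, and 2.20 and 0.79 for Sox4.

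The Irx cells allowed a comparison with hormone-poor Isl1CKO cells chosen by alpha cell factors, at a similar depth. Of 6839 genes, 352 (5.15%) were at least 2-fold higher in insulin-poor cells and 214 (3.13%) lower, together 8.28%; without scale factors the split was 512 and 136, and with totals taken without hormone genes 534 and 131. Of the 13 genes of beta cell function measured, 6 were higher and 3 lower (median 0.64), and of 14 islet factors 2 were higher and 1 lower. Among those higher were Dlk1 (89.2 against 1.04 CPM, log2 ratio 6.29), Spock2, a proteoglycan (83.6 against 1.97 CPM, 5.34), Prlr (221 against 21.6 CPM, 3.34) and Glis3, an insulin gene activator (51.4 against 8.80 CPM, 2.53). Among those lower was Slc30a8 (139.8 against 365 CPM, -1.39). Vim (75.4 against 2.18 CPM) was also higher. Alpha cell genes were lower, 9 of 13 measured with a median of -1.47, among them the amino acid transporter Slc38a5 (52.7 against 2089 CPM) and Ttr (9379 against 118607 CPM). Sct, secretin, a gut hormone, was lower as well, at 7.10 against 291 CPM (-5.35). Neurod1 (386 against 427 CPM), Pax6 (367 against 339.6 CPM) and Foxa2 (96.7 against 96.0 CPM) stood at similar levels in both.

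Markers of other cells moved with the comparisons. Of 13 acinar markers measured against Isl1CKO insulin-high cells 12 were lower in insulin-poor cells, with a median log2 ratio of -1.26 that was -1.88 within Xist-only and 0.94 within Y-only cells; against control insulin-high cells 8 of 9 were higher. The 15 acinar markers, 14 of them detected, summed to 0.0589% of UMIs in insulin-poor, 0.109% in Isl1CKO insulin-high and 0.00548% in control insulin-high cells, and to 0.513% and 0.0342% of free RNA in the Isl1CKO and control libraries. Within clusters 0, 2 and 5 the sums were 0.0185%, 0.0216% and 0.0340% in insulin-poor cells, against 0.0203%, 0.0217% and 0.0171% in insulin-high cells, so the difference between the Isl1CKO groups was not seen there. Macrophage markers made up 0.0112% of UMIs in insulin-poor and 0.0150% in Isl1CKO insulin-high cells, and Schwann and neuron markers 0.000965% in insulin-poor and 0.000895% in Isl1CKO insulin-high cells. What part free RNA had in the levels of single genes was not tested.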

How the data were processed

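Per the labels, tdTomato+ cells were captured with the 10x 3′ chemistry; the submitters' processing notes name STARsolo, STAR 2.7.3a, Seurat 4.3.0.1 and GRCm38.p6. The deposited values are raw UMI counts per gene and barcode, 1 matrix for each library, as the authors made them. From these counts, barcodes passed with 1000 or more UMIs, 500 or more genes and a mitochondrial share of 15% or less. Scrublet flagged 5.12% of control cells (216 of 4219) but none of the 8231 from Isl1CKO, where it failed, so doublets stayed in. UMIs were summed over the cells of each group and scaled with TMM (edgeR 4.0.16, R 4.3.3), with the insulin-poor cells' factor set to 1. DESeq2 1.42.0 size factors were an alternative. Ratios are log2 of scaled sums with 1 UMI added to each. A gene was measured in a comparison at 20 CPM and 20 UMIs in 1 group. Intervals are exact 95% Poisson, conditional ratio or Clopper-Pearson intervals and cover counting error only; UMIs limit but do not remove amplification effects. No test was run, since each genotype had 1 library and cells are not replicates.

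Isl1CKO cells were clustered (scanpy 1.11.5, leidenalg 0.10.2) on 2000 variable genes, without the rule's genes, with 30 components, 15 neighbours and resolution 1. Other steps used Python 3.11.15, numpy 2.4.6, scipy 1.17.1 and matplotlib 3.10.9. Free RNA was summed over barcodes with 1 to 50 UMIs. The scripts were tested on simulated data. The cells and the 23 gene lists (418 genes, 414 in the files) were chosen with earlier results of these data known. Genes of the lists could be named, and for each comparison the 15 highest and 15 lowest ratios among genes that reached 50 CPM and 20 UMIs in 1 group and had 1 sign under each scaling, leaving out unnamed predicted genes. Promoters come from RefSeq (32851 entries of GRCm38.p6). Alternatives covered scaling, filters, depth, doublets, sex-linked transcripts and the thresholds of the rule. Some results are not reported here.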

Additional observations from a re-analysis of the deposited data

How the results depend on the processing

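No paired analysis was possible because both library titles carry the same replicate number 3, so the genotypes share 1 number and hold 1 library each; leaving out a library leaves nothing to compare, and no test gives a call to lose. Over all alternatives, 2038 gene ratios stayed within their counting interval and 806 left it. Another 12, at least 2-fold in the main setting, changed sign. For list medians, 624 stayed within a range set by the spread of their genes and 74 left it. Another 4, at least 2-fold in the main setting, changed sign. Sign changes of smaller ratios and medians are among those that stayed or left. For counts and shares 92 stayed and 26 moved. Genes with under 10 UMIs in both groups under a setting have no value there.

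Counts of genes past 2-fold depended on scaling and filter. The median of all genes moved by -0.15 and -0.12 (log2) against control insulin-high cells with totals taken without hormone genes and with DESeq2 size factors, and by 0.27 and 0.29 against Irx cells without a scale factor and without hormone genes. Against Isl1CKO insulin-high cells, 157 genes were higher and 36 lower in insulin-poor cells without a scale factor, and 922 and 2126 with no filter on low genes; 83 were higher after thinning to 3000 UMIs, 87 in Y-only cells and 63 against cells with at least 10% insulin. Against control insulin-high cells, 5041 were higher and 54 lower without a scale factor, and 1760 and 6143 with no filter; 309 were lower after thinning and 905 higher in Xist-only cells. Against Irx cells, 136 were lower without a scale factor, 534 higher and 131 lower when totals were taken without hormone genes, 2244 and 2559 with no filter, and 322 lower in Y-only cells. Fewer or more genes pass the filter, or fewer cells enter, under several of these settings; for the rest the cause was not tested.

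Signs that changed against Isl1CKO insulin-high cells were the acinar median (0.94 in Y-only cells, 0.94 at 10% insulin, 0.32 within cluster 5), Sst (-0.33 at 3 UMIs of the factor pair, -0.67 in clusters 0, 2 and 5), Ppy (-0.23 in clusters 0, 2 and 5 together and -0.064, -0.87 and -0.27 within each) and Junb (-0.28 within cluster 5). Against control insulin-high cells they were Manf (0.018) and Creld2 (0.11) without a scale factor, the median of dedifferentiation and disallowed genes (-0.35), Gast (-2.77) and Slc5a10 (-0.071) in Xist-only cells, and Klf9 (-0.51) in Y-only cells. These signs were followed only for ratios and medians of at least 2-fold in the main setting, so smaller ones that changed sign are not listed. The cluster settings were chosen after seeing the data.

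The share of Isl1CKO cells that met the rule was 18.3% among Xist-only cells, 27.2% among Y-only cells, 21.4% at 2000 UMIs, 21.9% after thinning, 13.1% at 3 UMIs of the pair, 9.03% with a UMI of each factor and 16.7% with insulin under 0.2%. Depth limits low genes: a gene with no UMI in the insulin-poor cells may have up to 3 UMIs in their 16055647.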

Other observations

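Further gene groups of the insulin-poor cells are given here as values, without a test. Immediate early genes respond within minutes to stimuli. Of 7 measured against Isl1CKO insulin-high cells 4 were higher and none lower, against 0.534% higher over all genes. Their median log2 ratio was 1.04 (0.80 within Xist-only and 0.50 within Y-only cells). Against Irx cells, by contrast, none of 10 measured was higher and 4 were lower (median -0.61), against 3.13% lower over all genes. The median ratio to control insulin-high cells was 2.25 within Xist-only and 0.041 within Y-only cells. Egr1 stood at 298 CPM in insulin-poor, 106 CPM in Isl1CKO insulin-high and 16.5 CPM in control insulin-high cells, and Fos at 74.2, 30.5 and 11.5 CPM. Egr1 differed within the insulin-poor cells, at 447 CPM in Xist-only and 71.2 CPM in Y-only cells, and Junb likewise, at 147 and 31.5 CPM. The cells were dissociated in actinomycin D, and what part handling had in these levels was not tested.

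Of 14 glucocorticoid-responsive and clock genes none was called against Isl1CKO insulin-high cells, near the 2.05% called over all genes. Levels were higher than in control insulin-high cells in 8 of 14, with 1 lower, against 8.52% and 6.83% over all genes. The median log2 ratio to control was 1.52 within Xist-only and 0.47 within Y-only cells. Cidea, a lipid droplet protein, stood at 216 CPM in insulin-poor, 206 CPM in Isl1CKO insulin-high and 2.00 CPM in control insulin-high cells. Klf15, a classic glucocorticoid target, stood at 40.9, 38.8 and 2.50 CPM in those groups, but at 60.5 CPM in Xist-only and 7.41 CPM in Y-only insulin-poor cells. Dbp, a clock output gene, was the lower one, at 23.3 CPM against 102 CPM in control insulin-high cells.

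Genes of the endoplasmic reticulum were within 2-fold of Isl1CKO insulin-high cells in 22 of 23 cases; the exception was Psat1, a serine synthesis enzyme and ATF4 target, at 20.2 CPM against 3.43 CPM. Against control insulin-high cells 8 of 25 were lower, among them the foldases and cochaperones Pdia6 (304 against 822 CPM) and Sdf2l1. Another 3 were higher, among them Herpud1 (538 against 175 CPM). Over all genes 6.83% were lower and 8.52% higher in that comparison. None of 20 mitochondrial genes was called against Isl1CKO insulin-high cells (median -0.19). Over all genes 2.05% were called in that comparison, so these counts are not particular to the mitochondrial or endoplasmic reticulum genes. The proliferation genes Mki67 and Top2a had 2.93 and 1.68 CPM in insulin-poor cells, against 38.5 and 24.5 CPM in control insulin-high cells.

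The 357 control cells that met the rule differed from the insulin-poor cells in hormones. Insulin-poor cells held 87.3 CPM of Ppy, 96.9 CPM of Pyy and 25.1 CPM of Sst, against 246582, 173691 and 69928 CPM in those control cells, and 1.37 CPM of Abcc8 against 305 CPM. Fev stood at 309 CPM in insulin-poor and 131 CPM in those control cells, and Vim at 75.4 and 5.75 CPM.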
